A study of Mus musculus with 30 samples.

Results

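Mef2a, Mef2c and Mef2d are the members described here, the genes of the MEF2 family of transcription factors that were read in C2C12 cells, a mouse myoblast line, while it differentiated with or without hexavalent chromium. They were taken by name, as 3 of the 48709 genes of the expression table, and all 3 were among the 12946 genes that reached at least 1 scaled CPM (reads per gene brought to a common library size) in at least 3 libraries. The remaining family gene, Mef2b, was listed at 0 to 0.682 CPM and did not pass that filter. Its highest value was in replicate 3 of the 5 µM day 1 group, a library that stands apart.

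MEF2 proteins carry a MADS-box DNA-binding domain and bind A/T-rich sites in the control regions of muscle genes. In differentiating muscle they work together with the myogenic basic helix-loop-helix (bHLH) factors MyoD and myogenin, and myogenin itself has a MEF2 site in its promoter. Class IIa histone deacetylases hold MEF2 proteins inactive, and p38 kinase, calcium/calmodulin-dependent kinases and calcineurin raise their activity, so that the amount of a transcript is not the activity of its protein.

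Cells were switched to low-serum medium to differentiate, and potassium chromate, a source of Cr(VI), was present in that medium at 0, 2 or 5 µM. The 30 RNA-seq libraries form 10 groups of 3, namely day 0 at 0 µM and days 1, 2 and 4 at 0, 2 and 5 µM, and the 0 µM groups are called control. All groups come from the same cell line, and the labels say only that replicates are separate biological replicates, so p-values measure the spread between these libraries. Each library held between 18462092 and 26947109 reads, so that a single read stood for 0.0380 to 0.0584 CPM. The muscle markers Myod1, Myf5, Pax7, Cdh15, Des, Myog, Ckm and Acta1 summed to 2472 and 1725 CPM in a pair of day 1 libraries that stood apart, against 1009 to 12495 CPM in the other 28. Replicate 1 of the 2 µM day 1 group carried adipocyte markers summing to 3282 CPM, against 1.76 to 10.2 CPM in the other 28. Replicate 3 of the 5 µM day 1 group carried lung epithelium markers at 388 CPM and leukocyte markers at 326 CPM, against at most 0.941 and 1.42 CPM in the other 28. Endothelial markers summed to 47.0 and 43.1 CPM in these 2 libraries, against 0.203 to 13.5 CPM in the others. Neuron markers summed to 166 and 228 CPM in them, within the 38.9 to 441 CPM of the others. Among these, Syt1 stood at 20.8 CPM in replicate 3 of the 5 µM day 1 group, against at most 0.241 CPM in the other 28. Mef2c stood at 7.39 CPM in the library with adipocyte markers, between the other replicates of its group, and at 2.33 CPM in the one with lung markers, the lowest of its group. The part of these transcripts in the day 1 results was not tested, and day 1 results are given with and without both libraries. Since the libraries are bulk, fewer cells that express a gene and less of its RNA per cell cannot be told apart.

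In the GENCODE M21 annotation of GRCm38, Mef2c spans chr13:83504034-83667080 on the plus strand with 31 annotated transcripts, Mef2a spans chr7:67231163-67372858 on the minus strand with 12, and Mef2d spans chr3:88142372-88172086 on the plus strand with 7. Mef2a shares 302 exon bases (2.06%) with Lysmd4 on the other strand, and Mef2d shares 531 exon bases (8.87%) with the antisense gene 1700113A16Rik. The strand of counting is not given in the sources used here, but Lysmd4 reached at most 20.6 CPM and 1700113A16Rik at most 1.93 CPM, below all values of Mef2a and Mef2d. Mef2c overlapped no other annotated gene.

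Because Mef2c gave the largest changes of the 3 genes, the 250 bases before each of its 3 RefSeq start sites (GRCm38.p6, plus strand, 5′ to 3′) are shown. They were searched on both strands for the E-box CANNTG, which bHLH factors bind, for a MEF2 motif and for the CArG box of the related MADS-box protein SRF. Capitals mark each E-box.
Mef2c upstream of start site A, chr13:83503784-83504033: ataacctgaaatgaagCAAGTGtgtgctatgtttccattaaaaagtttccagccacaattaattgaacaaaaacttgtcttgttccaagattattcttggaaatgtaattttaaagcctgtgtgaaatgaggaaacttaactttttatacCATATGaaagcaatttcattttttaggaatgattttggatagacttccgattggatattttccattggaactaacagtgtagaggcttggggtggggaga
Mef2c upstream of start site B, chr13:83523406-83523655: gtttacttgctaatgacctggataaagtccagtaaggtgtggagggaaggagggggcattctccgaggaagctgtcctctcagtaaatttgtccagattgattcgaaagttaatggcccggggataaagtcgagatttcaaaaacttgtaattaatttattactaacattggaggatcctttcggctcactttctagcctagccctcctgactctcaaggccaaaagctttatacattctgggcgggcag
Mef2c upstream of start site C, chr13:83573357-83573606: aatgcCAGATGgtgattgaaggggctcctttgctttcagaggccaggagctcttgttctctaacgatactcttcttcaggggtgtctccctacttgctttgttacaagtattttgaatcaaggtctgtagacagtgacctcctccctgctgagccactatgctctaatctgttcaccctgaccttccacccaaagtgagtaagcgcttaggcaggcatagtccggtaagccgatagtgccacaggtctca

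The sequence before start site A held CAAGTG at bases -234 to -229 and CATATG at bases -100 to -95, counted from the start site, and the one before start site C held CAGATG at bases -245 to -240. No E-box was in the window of start site B. The same length before the RefSeq start of Mef2a (61.6% G or C) and of Mef2d (73.2%) held no E-box, while the Mef2c windows were 33.6%, 44.8% and 49.6% G or C. An E-box was in 66.2% of the 32851 mouse windows of this length, so its presence before Mef2c is common. No MEF2 motif, which is in 2.92% of all windows, and no CArG box, in 1.47%, was found before any of the 3 genes. The values are per gene and do not say which start site was used.

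In control cells the 3 genes followed different courses. Mef2a had most of its increase on day 1 and Mef2d rose at each step, whereas Mef2c rose little on day 1 and steeply after it. Mef2c had 8.86, 6.52 and 6.25 CPM in the replicates of day 0 and 14.1, 9.90 and 11.3 CPM in those of day 1. It then had 99.3, 115 and 99.5 CPM on day 2 and 759, 618 and 879 CPM on day 4. No replicate of one day overlapped those of the day before (28.5%, 22.2% and 18.5% of all genes were separate and higher in these steps), and the day 4 mean of 752 ± 131 CPM (SD, n = 3) was 104-fold that of day 0 (7.21 ± 1.44). By day 2 it had covered 13.1% of its increase between days 0 and 4.

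Mef2a had 92.6, 85.1 and 108 CPM on day 0, and 323, 284 and 331 CPM on day 1, which was already 51.1% of its increase to day 4. It had 462, 474 and 439 CPM on day 2 and 527, 476 and 559 CPM on day 4. Its levels on days 2 and 4 lay close together without overlapping. Mef2d had 55.6, 52.6 and 61.0 CPM on day 0, 125, 104 and 118 CPM on day 1, 186, 191 and 212 CPM on day 2 and 256, 262 and 314 CPM on day 4, with no overlap between successive days.

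Changes were tested with limma on log2(CPM + 1), a scale that understates the change of genes with low levels, and a gene was called where its p, adjusted over all genes tested by Benjamini and Hochberg, was below 0.05. All 3 genes rose on day 1 against day 0, where 25.4% of genes tested rose, with log2 changes of 1.71 for Mef2a, 0.64 for Mef2c (adjusted p = 0.00041) and 1.02 for Mef2d. All 3 rose again on day 2 against day 1, where 12.8% of genes rose, by 0.55, 3.06 and 0.76. On day 4 against day 2, where 11.7% rose, Mef2c rose by 2.82 and Mef2d by 0.49, and Mef2a changed by 0.18 (adjusted p = 0.19). The day 2 and day 4 steps of Mef2c were the rises ranked 40 and 23 by size among the 12946 genes.

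**Figure D1:**
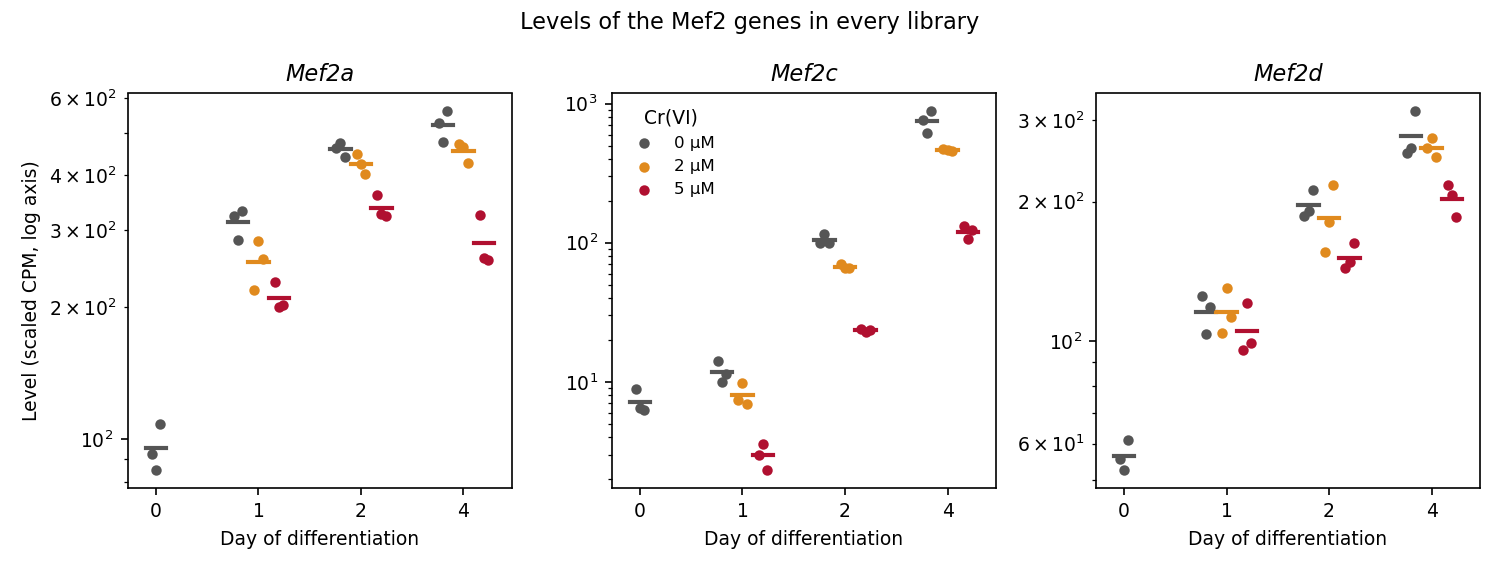
Level of each Mef2 gene in all 30 libraries in scaled CPM on a log axis, against the day of differentiation (points, libraries; short lines, group means; colours, Cr(VI) dose). Mef2c at 5 µM sits below both other doses on every day, between 2.33 CPM on day 1 and 131 CPM on day 4.

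At 5 µM chromate Mef2c was the most reduced of the 3 genes on every day, and its level relative to control was lowest on day 4. On day 1 it had 2.99, 3.56 and 2.33 CPM at 5 µM, against 14.1, 9.90 and 11.3 CPM in control, which is 25.1% of the control mean. On day 2 it had 24.1, 23.0 and 23.7 CPM at 5 µM, against 99.3, 115 and 99.5 CPM in control (22.6%). On day 4 it had 131, 107 and 122 CPM at 5 µM, against 759, 618 and 879 CPM in control (16.0%). The groups did not overlap on any day, as was so, in the lower direction, for 16%, 22.8% and 30.1% of all genes on days 1, 2 and 4. The day 1 values rested on 58 to 87 reads per library at 5 µM and 259 to 366 in control, and the lowest, 58 reads, has an exact Poisson interval of 44.0 to 75.0 reads (95%, counting error only).

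Mef2a was also lower at 5 µM, and by less. On day 1 it had 229, 200 and 202 CPM at 5 µM, against 323, 284 and 331 CPM in control, and on day 2 it had 360, 327 and 323 CPM at 5 µM, against 462, 474 and 439 CPM in control. On day 4 it had 325, 259 and 257 CPM at 5 µM, against 527, 476 and 559 CPM in control. The groups were separate on each day, and the 5 µM mean was 67.3%, 73.5% and 53.8% of control on days 1, 2 and 4. Mef2d was the least reduced. It had 95.8, 121 and 98.9 CPM at 5 µM on day 1, against 125, 104 and 118 CPM in control, and these groups overlapped. On day 2 it had 144, 148 and 163 CPM at 5 µM, against 186, 191 and 212 CPM in control, and on day 4 it had 217, 207 and 185 CPM at 5 µM, against 256, 262 and 314 CPM in control. On these days the groups were separate, at 77.1% and 73.3% of control.

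By limma, 2 of the 3 genes fell on day 1 at 5 µM, where 9.41% of all genes tested fell. The log2 changes were -1.69 for Mef2c (SE 0.14, adjusted p = 8.5e-11), -0.57 for Mef2a (adjusted p = 6.9e-05) and -0.14 for Mef2d (adjusted p = 0.46). Without both libraries that stood apart they were -1.57, -0.54 and -0.10, with the same calls. On day 2 all 3 fell, against 13.4% of all genes, by 2.10 for Mef2c (adjusted p = 2.4e-13), 0.44 for Mef2a (adjusted p = 0.00079) and 0.37 for Mef2d (adjusted p = 0.012). The Mef2d call on day 2 was lost without replicate 3 of control (adjusted p = 0.073) or replicate 1 of 5 µM (adjusted p = 0.059). On day 4 all 3 fell, against 28.6% of all genes, by 2.63 for Mef2c (adjusted p = 1.1e-16), 0.90 for Mef2a (adjusted p = 1.7e-09) and 0.44 for Mef2d (adjusted p = 0.00091). Among 12946 genes the falls of Mef2c ranked 82, 140 and 155 by size on days 1, 2 and 4, those of Mef2a ranked 1168, 2286 and 2093, and the changes of Mef2d ranked 4462, 2712 and 3827, counted from the most negative. The median change of all genes lay at -0.01 on each of these days.

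The size of the 5 µM effect was compared between days as a difference of differences in the same limma fit. For Mef2c the day 4 effect minus the day 1 effect was -0.94 on the log2 scale (adjusted p = 0.00055), in a comparison where 15% of genes had a lower effect on day 4. Mef2c averaged 2.96 CPM at 5 µM on day 1, and the value moved with the scale used. It was -0.69 with edgeR on whole reads (adjusted p = 0.016) and -1.52 with a pseudocount of 5 (adjusted p = 2.2e-08). A pseudocount understates the fall at the low day 1 level, which makes this difference larger. Against day 2 the Mef2c effect on day 4 differed by -0.53 (adjusted p = 0.057), which passed without replicate 2 of control on day 4 (adjusted p = 0.02) or replicate 1 of 5 µM on day 4 (adjusted p = 0.046). For Mef2a the day 4 effect minus the day 2 effect was -0.45 (adjusted p = 0.016), where 11.2% of genes had a lower effect. That call was lost without replicate 2 (adjusted p = 0.051) or replicate 3 (adjusted p = 0.054) of the 5 µM day 4 group, while the remaining replicate, at 325 CPM, stands above both. Against day 1 it was -0.33 (adjusted p = 0.068) and passed without replicate 2 of control (adjusted p = 0.037) or replicate 1 of 5 µM (adjusted p = 0.014) on day 4. On day 2 against day 1, where 5.8% of genes differed in either direction, neither Mef2c (-0.41, adjusted p = 0.3) nor Mef2a (0.12, adjusted p = 0.74) passed. The Mef2d effect did not pass between any days (adjusted p = 0.49 for day 2 against 1, 0.8 for day 4 against 2 and 0.14 for day 4 against 1).

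**Figure D2:**
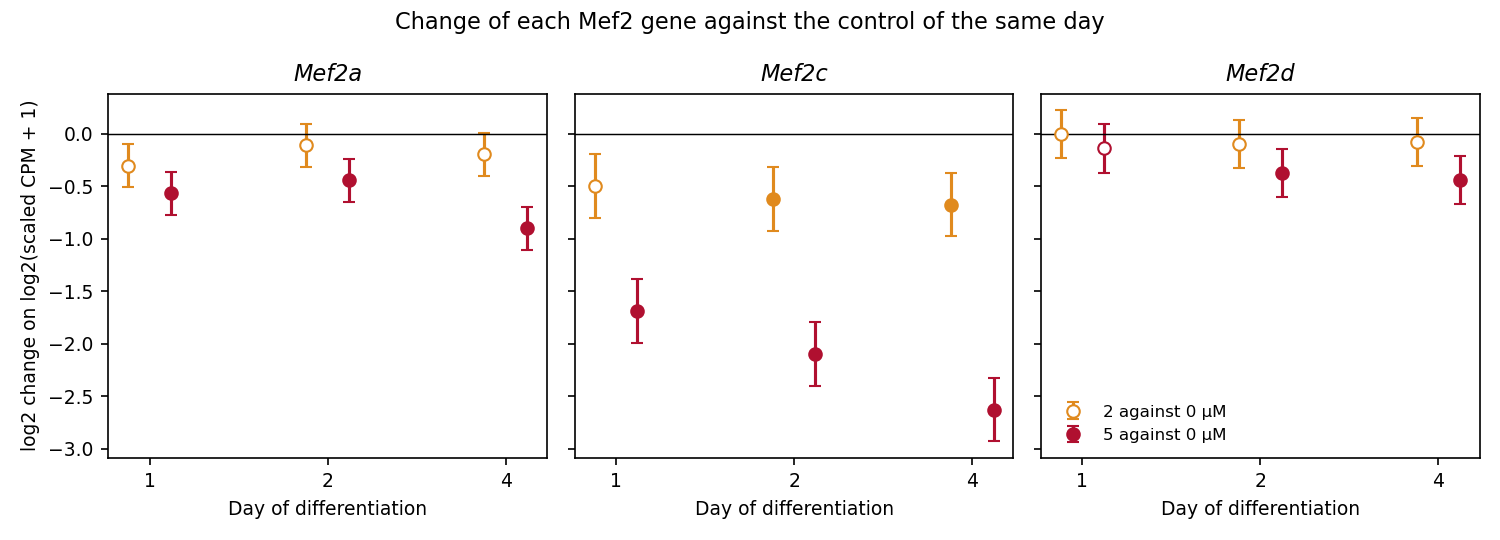
Log2 change of each Mef2 gene against the control of the same day, with 95% confidence intervals from limma (orange, 2 against 0 µM; red, 5 against 0 µM; filled, adjusted p below 0.05; open, not called). Mef2c at 5 µM lies at -1.69, -2.10 and -2.63 on days 1, 2 and 4, below the intervals of the other genes.

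At 2 µM Mef2c was again the gene with the lowest level relative to control, and Mef2d stood close to control. On day 1 Mef2c had 7.39, 9.85 and 6.90 CPM at 2 µM, against 14.1, 9.90 and 11.3 CPM in control, where the nearest values, 9.85 and 9.90 CPM, lie within their counting error. On day 2 it had 70.3, 66.2 and 65.7 CPM at 2 µM, against 99.3, 115 and 99.5 CPM in control. On day 4 it had 468, 468 and 460 CPM at 2 µM, against 759, 618 and 879 CPM in control. On days 2 and 4 the groups lay well apart. Over all genes, 9.11%, 12% and 11.5% had separate and lower groups at 2 µM on days 1, 2 and 4. The 2 µM means were 68.3%, 64.5% and 61.9% of control on days 1, 2 and 4.

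On day 1 at 2 µM, where 1.48% of genes fell, no member passed with limma, although Mef2c (-0.50, unadjusted p = 0.0016, adjusted p = 0.069) and Mef2a (-0.31, unadjusted p = 0.0037, adjusted p = 0.12) had unadjusted p-values below 0.05. Mef2c passed there with edgeR (adjusted p = 0.044) and DESeq2 (adjusted p = 0.011) on whole reads, and without replicate 2 of control (adjusted p = 0.046). Without replicate 2 of 2 µM both Mef2c (adjusted p = 0.015) and Mef2a (adjusted p = 0.033) passed, and without both libraries that stood apart neither did (adjusted p = 0.2 and 0.54). On day 2, where 0.247% of genes fell, Mef2c fell by 0.62 (adjusted p = 0.035), a call lost without any 1 of its 6 libraries (adjusted p of 0.09 to 0.23). On day 4, where 3.74% fell, it fell by 0.68 (adjusted p = 0.0018). Mef2a had 219, 283 and 258 CPM at 2 µM on day 1, 447, 423 and 402 CPM on day 2 and 472, 463 and 428 CPM on day 4, which is 81.0%, 92.6% and 87.2% of control, and its changes on days 2 and 4 did not pass (-0.11 and -0.19, adjusted p = 0.89 and 0.24). Mef2d had 104, 130 and 113 CPM at 2 µM on day 1, 156, 181 and 217 CPM on day 2 and 261, 274 and 250 CPM on day 4, overlapping control on each day, and its 95% intervals against control ran from -0.23 to 0.23, from -0.33 to 0.13 and from -0.31 to 0.15 on the log2 scale.

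Between the doses the order was the same for Mef2c on each day, with 5 µM below 2 µM and no overlap, which held for 10.9%, 17.7% and 28.4% of all genes on days 1, 2 and 4. It was lower at 5 than at 2 µM by 1.19 on day 1 (adjusted p = 6.1e-07), 1.47 on day 2 (adjusted p = 2.5e-09) and 1.95 on day 4 (adjusted p = 4.7e-13). Mef2c was the only one of the 3 genes called on day 1, where 4.25% of genes fell, and that call was lost when only these groups were fitted (adjusted p = 0.087). Without both libraries that stood apart its fall was 1.12 (adjusted p = 2.5e-05). Mef2a changed by -0.26 there (adjusted p = 0.12) and passed without replicate 1 of 2 µM (adjusted p = 0.035). On day 2, where 8.13% fell, Mef2a fell by 0.33 (adjusted p = 0.019), a call lost without replicate 1 (adjusted p = 0.09) or 2 (adjusted p = 0.054) of 2 µM or replicate 2 (adjusted p = 0.07) or 3 (adjusted p = 0.076) of 5 µM. Mef2d changed by -0.27 (adjusted p = 0.1) and passed without replicate 1 of 2 µM (adjusted p = 0.028) and when only these groups were fitted (adjusted p = 0.046). On day 4, where 24.8% fell, Mef2a fell by 0.70 (adjusted p = 3.5e-07) and Mef2d by 0.37 (adjusted p = 0.0064).

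Within 5 µM the genes still moved with time, from different starting points. On day 1 Mef2c at 5 µM was below day 0, with 2.99, 3.56 and 2.33 CPM at 5 µM, against 8.86, 6.52 and 6.25 CPM on day 0, a fall of 1.05 (adjusted p = 2.2e-07) in a comparison where 24.1% of genes fell. Mef2a and Mef2d rose over the same day by 1.14 and 0.88, as did 25.8% of genes. Without both libraries that stood apart the fall of Mef2c was 0.93 (adjusted p = 4.1e-06). At 2 µM Mef2c was level with day 0 on day 1 within its spread (0.14, adjusted p = 0.44), while Mef2a and Mef2d rose by 1.40 and 1.02, where 27.5% of genes rose. Mef2c at 5 µM then rose on day 2 against day 1 by 2.65, where 12.9% of genes rose, and on day 4 against day 2 by 2.29, where 21% rose. Mef2d rose in the same steps by 0.53 and 0.42. Mef2a rose by 0.68 on day 2 and fell by 0.27 on day 4 against day 2 (adjusted p = 0.026), where 20.3% of genes fell. The groups behind that fall overlapped, with 325, 259 and 257 CPM on day 4 against 360, 327 and 323 CPM on day 2. It was lost without replicate 1 of day 2 (adjusted p = 0.12) or replicate 2 (adjusted p = 0.12) or 3 (adjusted p = 0.13) of day 4.

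At 2 µM, on day 2 against day 1, where 12.7% of genes rose, Mef2a, Mef2c and Mef2d rose by 0.75, 2.93 and 0.67. At 2 µM, on day 4 against day 2, where 12.1% rose, Mef2c rose by 2.77 and Mef2d by 0.51, and Mef2a changed by 0.10 (adjusted p = 0.52). Set against the increase of control cells between days 0 and 4, the day 4 level at 2 µM had covered 84.4% for Mef2a, 61.5% for Mef2c and 93.0% for Mef2d. At 5 µM these were 43.4%, 15.1% and 66.5%. The 2 µM effect did not pass between days for any member with limma (adjusted p of 0.79 to 1, unadjusted p of 0.17 to 0.89), in comparisons where 0%, 0.263% and 1.71% of all genes did.

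Ordered by group mean, Mef2c ran from 2.96 ± 0.62 CPM at 5 µM on day 1 through day 0 (7.21 ± 1.44), 2 µM on day 1 (8.05 ± 1.58) and control on day 1 (11.8 ± 2.1) to the day 2 groups. These stood at 23.6 ± 0.59 CPM at 5 µM, 67.4 ± 2.6 at 2 µM and 105 ± 8.8 in control, followed by the day 4 groups at 120 ± 12.4, 465 ± 4.8 and 752 ± 131 CPM at 5, 2 and 0 µM. Of these neighbours, 2 µM on day 1 and day 0 overlapped, as did 5 µM on day 4 (107 to 131 CPM) and control on day 2 (99.3 to 115 CPM). Mef2d at 5 µM on day 4 (185 to 217 CPM) also overlapped control on day 2 (186 to 212 CPM). Mef2a at 5 µM on day 4 (257 to 325 CPM) lay below control on day 2 and overlapped control on day 1 (284 to 331 CPM). These levels across days are given without a test.

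Mef2a ran from 95.4 ± 11.9 CPM on day 0 through 5 µM on day 1 (210 ± 15.7), 2 µM on day 1 (253 ± 31.8), 5 µM on day 4 (280 ± 38.6), control on day 1 (313 ± 25.1), 5 µM on day 2 (337 ± 20.2), 2 µM on day 2 (424 ± 22.2), 2 µM on day 4 (454 ± 23.7), and control on day 2 (458 ± 17.4) to control on day 4 (521 ± 42.0). Its neighbours in this order did not overlap at 3 places: day 0 lay below the rest, the groups up to 5 µM on day 2 lay below 2 µM on day 2, and control on day 4 lay above control on day 2. Mef2d ran from 56.4 ± 4.2 CPM on day 0 through 5 µM on day 1 (105 ± 13.8), 2 µM on day 1 (116 ± 13.5), control on day 1 (116 ± 11.1), 5 µM on day 2 (151 ± 9.8), 2 µM on day 2 (185 ± 30.9), control on day 2 (197 ± 13.6), 5 µM on day 4 (203 ± 16.5), and 2 µM on day 4 (262 ± 12.3) to control on day 4 (277 ± 31.8). The breaks without overlap lay above day 0, above control on day 1 and above 5 µM on day 4, so that each dose overlapped the next on days 1 and 2 and the 5 µM group stood apart from both other doses on day 4.

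The balance between the members differed between doses. On day 4 the log2 ratio of Mef2c to Mef2a in single libraries was 0.52, 0.38 and 0.65 in control, -0.01, 0.01 and 0.10 at 2 µM, and -1.30, -1.27 and -1.06 at 5 µM. The 3 doses did not overlap on that day, and the ratio fell with dose. On day 1 control (-4.42, -4.71 and -4.75) and 2 µM (-4.72, -4.71 and -5.04) overlapped, with a difference of -0.19. The 5 µM libraries lay below both (-5.85, -5.47 and -5.93). Averaged over days 1, 2 and 4, the ratio of Mef2c to Mef2a was lower by 1.50 at 5 µM than in control and by 0.40 at 2 µM, and the ratio of Mef2c to Mef2d was lower by 1.82 and 0.54. An exact 2-sided permutation test of the dose labels within days gave p = 0.00025, the smallest it can give, for each of these except Mef2c to Mef2a at 2 µM (p = 0.0013), and adjusted p of 0.00045 and 0.0019 over the 9 ratio comparisons. Without both libraries that stood apart the ratio of Mef2c to Mef2a was lower by 1.47 at 5 µM and by 0.41 at 2 µM, with the same calls. With pseudocounts of 0.5 and 5 in place of 1, its difference at 5 µM against control was -1.56 and -1.23, with the same call. Between 5 and 2 µM both ratios were lower at 5 µM, by 1.11 and 1.28 (exact permutation p = 0.00025, adjusted p = 0.00045).

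Mef2d rose relative to Mef2a at 5 µM by 0.32 (exact permutation p = 0.0027, adjusted p = 0.0035), and this was 0.24 without the libraries of replicate 2 (adjusted p = 0.071). The difference was 0.43 on day 1, 0.07 on day 2 and 0.45 on day 4. At 2 µM against control (0.14) and at 5 against 2 µM (0.17) it did not pass (adjusted p = 0.079 for both). The ratio of Mef2c to Mef2d fell on each day, by 1.55, 1.72 and 2.18 at 5 µM.

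**Figure D3:**
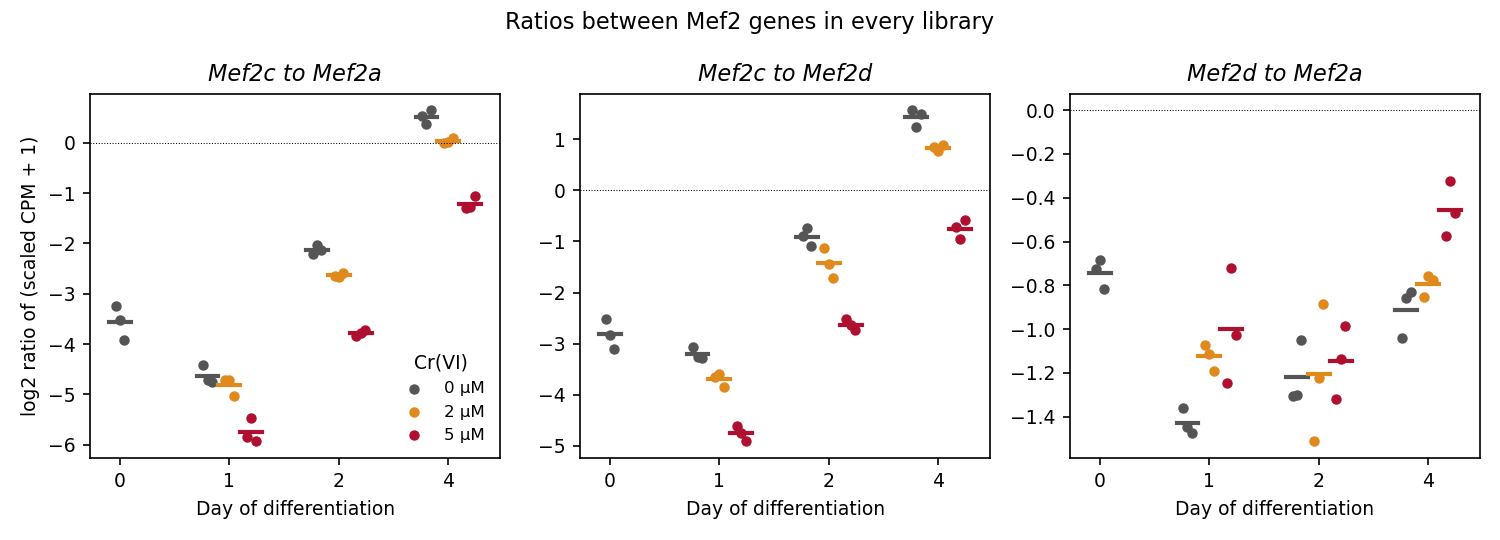
Log2 ratio between Mef2 genes, on (scaled CPM + 1), in each of the 30 libraries against the day of differentiation (points, libraries; short lines, group means; colours, dose). Mef2c to Mef2a averages -1.21 at 5 µM on day 4 and 0.52 in control, while Mef2d to Mef2a moves less, with -0.46 at 5 µM and -0.91 in control.

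Of the summed reads of the 3 genes, Mef2c on day 4 held 48.3 ± 2.4% in control, 39.4 ± 0.90% at 2 µM and 19.9 ± 1.6% at 5 µM (SD, n = 3 each). Mef2d held 33.7 ± 2.1% at 5 µM and 17.9 ± 1.4% in control, and Mef2a held 46.3 ± 1.7% at 5 µM and 33.7 ± 1.6% in control. These are shares of reads, and the order of the genes per length depends on which length is used. Per kilobase of all annotated exons, Mef2c was the lowest of the 3 at 5 µM on day 4, with 7.64 CPM per kb against 19.1 for Mef2a and 33.9 for Mef2d. In control it stood at 47.9, with Mef2d at 46.3 and Mef2a at 35.5 CPM per kb. Per kilobase of the median coding transcript, which is 1.06 kb for Mef2c, 2.57 kb for Mef2a and 2.64 kb for Mef2d, Mef2c was at 113 ± 11.7 CPM per kb at 5 µM, within the spread of Mef2a (109 ± 15.0), and at 710 in control, above Mef2a (203). On this length Mef2d was the lowest, at 76.9 CPM per kb at 5 µM and 105 in control. Annotated coding transcripts of Mef2c run from 0.332 to 6.28 kb, so its place depends on the length taken.

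Srf, which encodes another MADS-box factor of muscle, was not called at 5 µM on any day. It stood at 49.6 ± 3.2, 68.0 ± 2.2 and 70.6 ± 4.9 CPM at 5 µM on days 1, 2 and 4, against 61.4 ± 6.9, 60.7 ± 4.3 and 59.9 ± 11.1 CPM in control. By limma the log2 changes were -0.30, 0.16 and 0.25 (adjusted p = 0.087, 0.35 and 0.07). The day 4 effect on Srf minus the day 1 effect was 0.55 (limma adjusted p = 0.01), in a comparison where 4079 of 12946 genes were called in either direction. Its effect did not pass for day 2 against day 1 (0.46, adjusted p = 0.1) or day 4 against day 2 (0.09, adjusted p = 0.77).

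Among the bHLH factors that act with MEF2, the changes at 5 µM went both ways. On day 4, 1 of 7 was higher and 3 were lower (list median -0.11, against -0.01 over all genes). On day 2 there were 2 higher and 2 lower (median 0.10), and on day 1 there were 1 and 2 (median -0.10), or 2 and 2 without both libraries that stood apart. Over all genes 4.29%, 10.2% and 27.3% were higher and 9.41%, 13.4% and 28.6% lower on days 1, 2 and 4. Myog, which encodes myogenin and is itself a MEF2 target, averaged 233 ± 25.8 CPM at 5 µM on day 4 and 1152 ± 84.7 CPM in control (-2.30, limma adjusted p = 1.1e-16). Myod1 averaged 62.7 ± 5.7 CPM at 5 µM and 141 ± 9.3 CPM in control (-1.16, adjusted p = 2.1e-11), and Tcf4, an E protein that pairs with them, fell by 0.42 (adjusted p = 0.0017). Myf5, the factor of undifferentiated myoblasts, rose to 94.1 ± 6.3 CPM at 5 µM, against 22.3 ± 2.6 CPM in control (2.03, adjusted p = 4.7e-16). The E protein genes Tcf3 (0.04, adjusted p = 0.86) and Tcf12 (-0.11, adjusted p = 0.35) and the late factor Myf6 (0.46, adjusted p = 0.22) did not pass. At 2 µM on day 4 Myog fell by 0.58 (adjusted p = 0.0022) and Myf5 rose by 0.99 (adjusted p = 3.1e-07).

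The list of muscle genes known as MEF2 targets held 32 genes, all of which passed the filter, and Myog, Hdac9 and Srpk3 among them are on other lists as well. Of the 32, 27 were higher and 1 lower in control on day 4 than on day 0 (median 5.07, against 0.01 over all genes, of which 30.3% were higher and 29.5% lower). At 5 µM against control, 20 were lower on day 1 and the rest did not pass (median -0.98), 21 lower and 3 higher on day 2 (median -1.21), and 23 lower and 4 higher on day 4 (median -1.47). Over all genes 9.41%, 13.4% and 28.6% were lower and 4.29%, 10.2% and 27.3% higher on these days. Without both libraries that stood apart, day 1 had 21 lower and 1 higher (median -1.12). Myl2, the slow and ventricular regulatory myosin light chain, averaged 3.77 ± 1.29 CPM at 5 µM on day 4 and 48.8 ± 4.1 CPM in control (-3.42, limma adjusted p = 1.2e-13). Myoz2, a Z-disc protein that binds calcineurin, averaged 32.6 ± 2.3 CPM at 5 µM and 324 ± 24.5 CPM in control (-3.27, adjusted p = 4.1e-18), and the M-band protein gene Myom1 averaged 37.2 ± 4.8 CPM at 5 µM and 280 ± 24.5 CPM in control (-2.88). The myoglobin gene Mb averaged 131 ± 6.8 CPM at 5 µM and 795 ± 137 CPM in control (-2.58, adjusted p = 1.2e-13).

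The 4 targets that rose on day 4 were the transcription factor genes Jun (0.97), Klf2 (0.99), Klf4 (1.73) and Klf6 (1.65), which also belong to early stress and growth responses. Myog, another transcription factor gene on this list, fell (-2.30). Why these 4 rose was not tested. Klf4 averaged 217 ± 17.0 CPM at 5 µM and 64.7 ± 8.2 CPM in control (limma adjusted p = 3.0e-14), and Klf6 averaged 440.5 ± 8.0 CPM at 5 µM and 140 ± 7.9 CPM in control (adjusted p = 5.2e-18). At 2 µM the targets had 9 lower on day 1, where 1.48% of all genes were lower. Without both libraries that stood apart 6 were lower, and 0.905% of all genes were called in either direction. They had 3 lower on day 2, where 0.247% of all genes were lower, and 7 lower and 3 higher on day 4, where 3.74% were lower and 5.11% higher. The list medians were -0.44, -0.19 and -0.24. On day 4 Jun (0.56), Klf4 (0.54) and Klf6 (0.50) rose at 2 µM too, and Myoz2 fell by 1.03 (adjusted p = 2.9e-05).

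**Figure D4:**
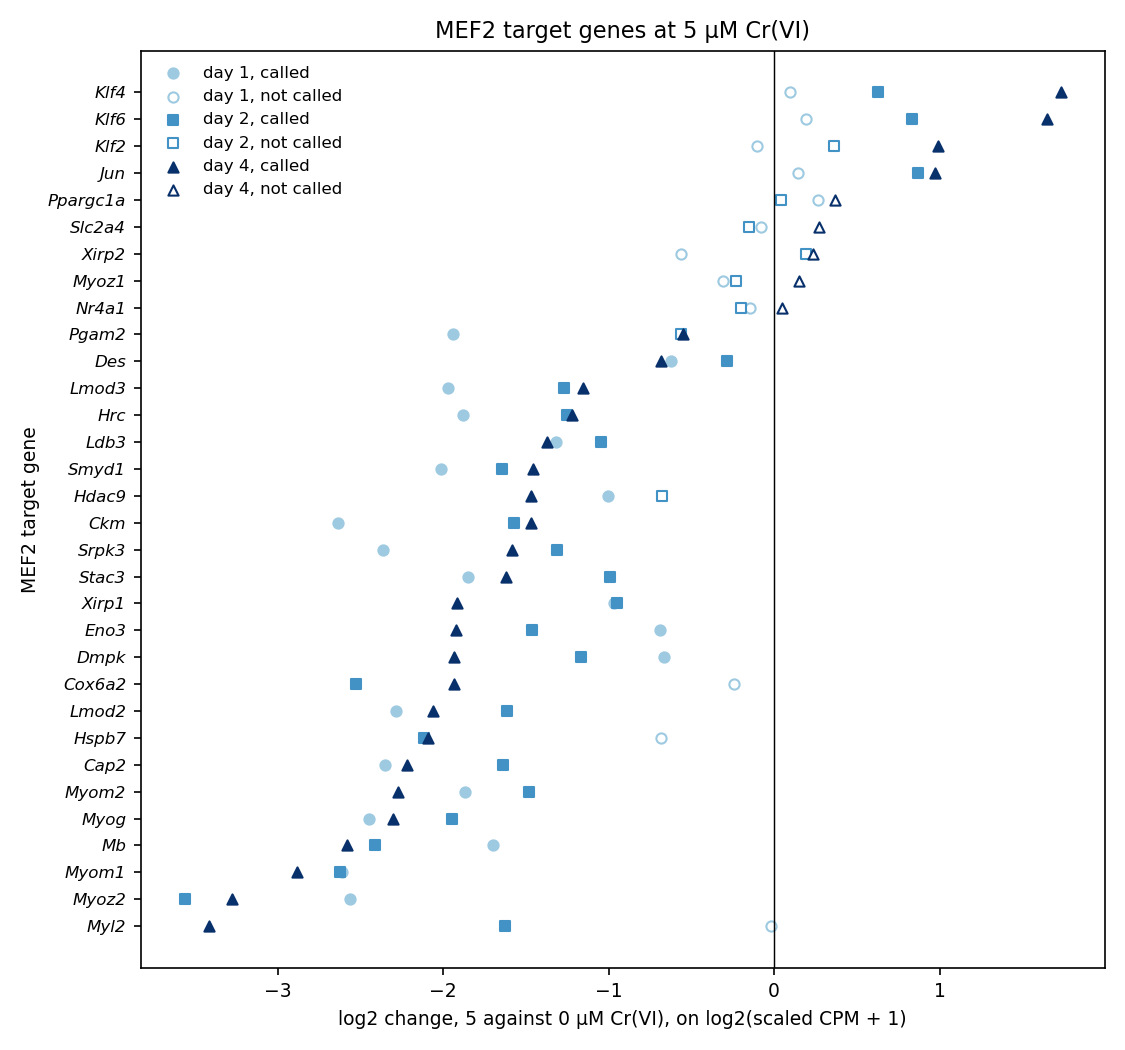
Log2 change of 32 MEF2 target genes of muscle at 5 µM against control of the same day, on log2(scaled CPM + 1), in genes ordered by day 4 (circles, squares and triangles, days 1, 2 and 4; filled, adjusted p below 0.05; open, not called). On day 4, 23 genes lie below 0 as called and Jun, Klf2, Klf4 and Klf6 above it.

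The genes that restrain or help MEF2 proteins are read against the shares of all genes called at 5 µM on day 4, which were 27.3% higher and 28.6% lower. Of 12 genes tested for repressors, class IIa deacetylases and their partners, 5 were higher and 2 lower on that day (median 0.19). The deacetylase gene Sirt1 averaged 115 ± 12.0 CPM at 5 µM and 31.5 ± 7.6 CPM in control (1.86, limma adjusted p = 4.1e-12). Of the class IIa deacetylases, Hdac7 rose by 0.84 (adjusted p = 0.00016), Hdac9, itself a MEF2 target, fell by 1.47 (adjusted p = 3.1e-05), and Hdac4 (0.33, adjusted p = 0.16) and Hdac5 (0.09, adjusted p = 0.53) did not pass. Ywhaz, a 14-3-3 protein gene whose family carries phosphorylated class IIa deacetylases out of the nucleus, rose by 1.10. It and Ywhae are on this list as partners, so the counts are not of repressors alone. On day 1 this list had 1 higher and 1 lower (median -0.02) and on day 2 it had 2 higher (median 0.12). The shares of all genes were 4.29% higher and 9.41% lower on day 1, and 10.2% and 13.4% on day 2.

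Of 15 coactivators, 4 were higher and 4 lower at 5 µM on day 4 (median -0.15), close to the 27.3% and 28.6% of all genes. The acetyltransferase genes Crebbp (0.93) and Ep300 (0.87) and the nuclear receptor coactivator gene Ncoa3 (1.53) were higher, and Wwtr1, which encodes TAZ, was lower (-0.93). On day 1 there were 1 higher and 4 lower, and 1 and 3 without both libraries that stood apart (medians -0.09 and -0.15). On day 2 there were 2 higher and 1 lower (median 0.13). The shares of all genes were 4.29% higher and 9.41% lower on day 1, and 10.2% and 13.4% on day 2.

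Of 23 genes listed with the kinases and phosphatases that activate MEF2, 6 were higher and 13 lower at 5 µM on day 4 (median -0.36). Over all genes, 27.3% were higher and 28.6% lower. The list also holds Rcan1 and Rcan2, whose products regulate calcineurin and are not themselves activators, so the counts are not of activators alone. Camk2a, a calcium/calmodulin-dependent kinase, averaged 40.6 ± 1.9 CPM at 5 µM and 163 ± 0.67 CPM in control (-1.98, limma adjusted p = 3.0e-10). Mapk12, the p38γ kinase of muscle, averaged 11.0 ± 1.4 CPM at 5 µM and 35.4 ± 5.2 CPM in control (-1.59, adjusted p = 1.2e-08), and Camk2b fell by 1.41 (adjusted p = 0.0044). Prkd2, a protein kinase D that phosphorylates class IIa deacetylases, rose by 1.31 (adjusted p = 2.1e-05). Day 1 had 1 higher and 4 lower (median -0.19), or 2 lower without both libraries that stood apart, and day 2 had 2 and 5 (median -0.12). For this list and the next, the shares of all genes were 4.29% higher and 9.41% lower on day 1, and 10.2% and 13.4% on day 2. Of 11 genes listed as kinases that restrain MEF2, 4 were higher and 2 lower on day 4 (median 0.14), counts near the shares of all genes. The list also holds Mark2, Sik1, Sik2 and Sik3, kinases that phosphorylate class IIa deacetylases as Prkd2 does. Its counts are therefore not of restraining kinases alone. Cdk5, a kinase that inactivates MEF2 in neurons, fell by 2.01 (adjusted p = 1.4e-11) and Prkaca, a protein kinase A subunit, by 0.62, and Pkn2 (0.39) and Rock1 (0.38, adjusted p = 0.035) rose. Day 2 also had 4 higher and 2 lower (median 0.14). On day 1 Cdk5 was lower (-0.56, adjusted p = 0.033) and the other genes of the list did not pass (list median -0.07), and that call was lost without both libraries that stood apart.

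Mef2 transcripts are spliced to muscle forms, so regulators of muscle splicing were counted as well, although the table holds no exon values. Of 11 tested, 4 were higher and 6 lower on day 4 at 5 µM (median -0.65), where 27.3% of all genes were higher and 28.6% lower. Rbfox1, which promotes the muscle exon of Mef2d, averaged 4.59 ± 0.86 CPM at 5 µM and 27.3 ± 4.8 CPM in control (-2.33, limma adjusted p = 9.7e-09). Srpk3, a splicing kinase and MEF2 target, fell by 1.59 (adjusted p = 3.6e-07), Celf2 fell by 1.07, and Ptbp2, a repressor of tissue-specific exons, rose by 0.86. On day 1 there were 1 higher and 4 lower, also without both libraries that stood apart (median -0.14), and on day 2 there were 2 and 3 (median -0.06). The shares of all genes were 4.29% higher and 9.41% lower on day 1, and 10.2% and 13.4% on day 2.

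The genes most alike to each member were found by the Pearson correlation of mean log2 levels over the 10 groups, among the 10980 genes whose mean reached 5 CPM in any group. Closest to Mef2a were Actn3 (r = 0.996), the Z-disc actinin of fast fibres, Pbxip1, Ip6k3, Cand2, Iffo1 and Trim55. Closest to Mef2c were Atp2a2 (r = 0.995), the calcium pump gene of slow muscle, Ube2g2, Bod1, Mb (r = 0.989), Slc6a19 and Rbfox1. Closest to Mef2d were Coq8a (r = 0.996), Tmem38b, Armcx1, Cdkn1a, which encodes a cell cycle inhibitor, Klhl40 and 2010107E04Rik. Actn3 averaged 261 CPM at 5 µM on day 4 and 883 CPM in control, and Atp2a2 averaged 737 CPM at 5 µM and 1325 CPM in control. This correlation takes no account of the size of a change. Ube2g2 averaged 94.3 CPM on day 0 and 310 CPM in control on day 4, where Mef2c rose 104-fold. Slc6a19 lay near the floor, with 0 CPM at 5 µM on day 1 and 8.35 CPM at 2 µM on day 4. Between the members r was 0.737 for Mef2c and Mef2a, 0.892 for Mef2c and Mef2d and 0.921 for Mef2d and Mef2a. The named genes were picked for the highest r, so lower values between members follow from that choice. All points share the same libraries, and the values describe these groups only. Ranking by Spearman correlation named 1 of the same 6 genes for Mef2a and 0 for Mef2c and Mef2d. The genes named by Pearson correlation still had Spearman values of 0.95 to 1. Ranks over 10 groups allow ties, and 2010107E04Rik was not named again although its Spearman value with Mef2d was 1. The Spearman counts therefore rest in part on the order of tied genes. Without both libraries that stood apart 4, 4 and 5 of the 6 were named again.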

How the data were processed

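The authors deposited RNA-seq levels as 1 table of 48709 genes in 30 libraries, whose columns are named CPM per the file headers. The deposited signal is a scaled CPM made by the authors from whole reads: within a library every value was a multiple of the same step (100% within 0.02 of a whole read), and columns summed to 892246 to 1079920. TRIzol extraction and the TruSeq RNA kit of Illumina are named per the labels' protocols. For the aligner, counting tool, genome build, strand and scaling, each is not given in the sources used, so reads of related genes may be split in an unknown way.

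Each of 26 comparisons was fitted with limma 3.58.1 (R 4.3.3) on log2(CPM + 1), with 1 coefficient for each group of the 30 libraries (20 residual degrees of freedom) and a variance trend. Genes with at least 1 CPM in at least 3 libraries entered (12946), and p-values were adjusted over all of them. Ratios between members were compared by an exact permutation test over 8000 arrangements of dose labels within days. Both were tested on simulated data. Levels are means with the SD of 3 libraries. Alternatives were edgeR 4.0.16 and DESeq2 1.42.0 on the recovered whole reads, other scalings, filters and pseudocounts, libraries left out and a replicate term. Promoter windows came from RefSeq and gene models from GENCODE. Replicates correlated at 0.955 to 0.991 and none was a copy of another (chi-square per degree of freedom of at least 9.53).

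The members and gene lists were chosen with earlier results of these data known. The members are always given. Of each list, up to 4 called genes with the largest change on day 4 between 5 and 0 µM were named, of the MADS-box and bHLH lists any gene, and beside each member the 6 genes most like it. Hdac4, Hdac5, Jun, Klf2, Klf4, Klf6 and the genes named at 2 µM were named after their values were seen. Poisson intervals cover counting error only.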

Additional observations from a re-analysis of the deposited data

Results flagged for a closer look

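The effect of 5 µM chromate differed between days in a test of the difference itself for 2 genes. For Mef2c the day 4 effect minus the day 1 effect was -0.94 on the log2 scale (limma adjusted p = 0.00055), with 16.0% of the control level on day 4 and 25.1% on day 1. The difference kept its call under each alternative run and ranged from -1.52 (adjusted p = 2.2e-08) with a pseudocount of 5 to -0.69 (adjusted p = 0.016) with edgeR on whole reads, and without both libraries that stood apart it was -1.06. A pseudocount understates the fall at the low day 1 level, so -0.94 and -1.52 are enlarged by the scale. For Mef2a the day 4 effect minus the day 2 effect was -0.45 (adjusted p = 0.016), with 53.8% of the control level on day 4 and 73.5% on day 2. Over the alternatives its adjusted p ran from 0.0027 to 0.054, and it lost its call without replicate 2 (-0.40, adjusted p = 0.051) or replicate 3 (-0.40, adjusted p = 0.054) of the 5 µM day 4 group. Why the effects differ between days was not tested.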

How the results depend on the processing

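Of the recomputed member changes, 1522 kept their direction and side of the threshold, and 23 gained a call, 21 lost it and 24 changed sign. The number of members called at 2 against 0 µM on day 1 was 1 with edgeR and with DESeq2 in place of 0. On day 2 it was 0 without a filter and with a pseudocount of 0.5 in place of 1, and at 5 against 2 µM on day 1 it was 0 with only the compared groups in place of 1. For the 5 µM effect on day 4 against day 2 it was 2 in place of 1 with edgeR, DESeq2, median-of-ratios scaling, only the compared groups, a pseudocount of 5 and without both libraries that stood apart. For day 4 against day 1 it was 2 in place of 1 with DESeq2, median-of-ratios scaling, libraries scaled to the same sum and without both libraries, and for day 2 against day 1 it was 1 in place of 0 with a pseudocount of 5. The number of all genes called moved as well. At 2 against 0 µM on day 1 it was 258 by limma, 348 by edgeR and 457 by DESeq2. For the 5 µM effect it was 3074, 2914 and 3100 on day 4 against day 2. On day 4 against day 1 it was 4079, 3807 and 3984. With single libraries left out the count of members called ranged from 0 to 2 at 2 against 0 µM on day 1 and for the 5 µM effect on day 4 against day 2, was 0 at 2 against 0 µM on day 2 without any 1 of the 6 libraries, and ranged from 1 to 2 at 5 against 2 µM on days 1 and 2 and for the 5 µM effect on day 4 against day 1. Mef2d at 2 against 0 µM on day 1 changed sign near 0, with 0.0030 by edgeR, 0.0029 by DESeq2, 0.0025 with median-of-ratios scaling and 0.069 without both libraries, as did its 2 µM effect on day 4 against day 2 (-0.022 by edgeR, -0.0073 by DESeq2). With single libraries left out, uncalled values of Mef2d ranged from -0.094 to 0.069, -0.22 to 0.016 and -0.13 to 0.014 at 2 against 0 µM on days 1, 2 and 4. Its 2 µM effect ranged from -0.22 to 0.021 on day 2 against day 1, -0.093 to 0.14 on day 4 against day 2 and -0.15 to 0.019 on day 4 against day 1, and its 5 µM effect on day 4 against day 2 from -0.13 to 0.021. The 2 µM effect on Mef2c ranged from -0.25 to 0.014 on day 2 against day 1 and from -0.19 to 0.066 on day 4 against day 2. The Mef2d to Mef2a ratio at 5 against 0 µM ranged from 0.24 to 0.38 and lost its call without replicate 2. Single calls also moved for Mef2a on day 4 against day 2 at 5 µM, lost without a filter (-0.27, adjusted p = 0.05), and for Mef2d at 5 against 2 µM on day 2, gained with only the compared groups (-0.27, adjusted p = 0.046, by limma). The cause was not tested.

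Same-numbered replicates did not deviate together (correlations of -0.23 to 0.13, median 0.0061, over 20 comparisons), so no shared effect of the replicate number was seen. The labels do not say whether same-numbered replicates were handled together. With a replicate block no call of a member change moved, and the Mef2d to Mef2a ratio passed at 2 against 0 µM (0.14) and at 5 against 2 µM (0.17), with an exact permutation adjusted p of 0.043 for both. Over all genes, the number called at 2 against 0 µM was 258 by limma, 457 by DESeq2 and 116 without both libraries that stood apart on day 1, and 66, 170 and 130 on day 2. At 5 against 2 µM on day 1 it was 717, or 406 without both libraries. For the 2 µM effect it was 0 by limma and 56 by DESeq2 on day 2 against day 1, 34, 93 and, without both libraries, 64 on day 4 against day 2, and 221 and 400 on day 4 against day 1. Depth limits Mef2c on day 1, at 58 to 366 reads, and Mef2b throughout. With 3 libraries a group, calls near the threshold rest on single libraries, and a table per gene shows neither isoforms nor start sites.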
